A study of Rattus norvegicus with 2 samples.

Results

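A set of 10 genes of glucose use was followed in sorted microglia of the fetal rat hippocampus: the hexose transporters Slc2a1 and Slc2a5 and the glycolysis enzymes Hk2, Gpi, Aldoa, Tpi1, Pgk1, Eno1, Pkm and Ldha. They were chosen by name, by an exact match of the symbol in the deposited gene table, which matched 10 of 10 among 32623 genes. The cells were microglia purified by flow cytometry from hippocampi of male rat embryos (Rattus norvegicus) at gestational day 20, sequenced as single cells in droplets. In the dexamethasone library the embryos had received this synthetic glucocorticoid prenatally, and in the control library they had not. Each library was 1 pool of 7 male embryos, so differences between embryos cannot be seen. Strain, dose and exposure window are not given in the sources used here. Since each group has 1 library, there is no replicate check and no test, and library and exposure cannot be told apart.

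Glycolysis splits glucose into pyruvate in the cytosol and yields ATP without oxygen, and lactate dehydrogenase then turns pyruvate into lactate. Glucose enters cells through facilitative transporters of the Slc2a family, and hexokinase traps it as glucose-6-phosphate. Microglia, the resident macrophages of the brain, use both glycolysis and oxidative metabolism, and Slc2a5, which carries fructose, is known in the brain mainly from microglia.

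The dexamethasone library held 4328 barcodes with 42611920 unique molecular identifiers (UMIs, 1 per captured transcript), and the control library 8342 barcodes with 69940778 UMIs. After filtering, 4196 dexamethasone and 8044 control cells were clustered together into 14 clusters, and 5 barcode sequences occurred in both libraries. By their markers 6 clusters were microglia-like, with 3219 dexamethasone cells (76.7%) and 6295 control cells (78.3%). Of 14 microglia markers in the gene table, 13 were detected in them in each library, and Siglech was at 0 in both. Other named clusters were border-associated-macrophage-like (463 dexamethasone and 737 control cells), granulocyte-like (91 and 113), erythroid-like (101 and 131) and neuron-like (120 and 519), so the sorted cells were not microglia alone. In microglia-like cells the median depth was 9185 UMIs for dexamethasone and 7952 for control, and mitochondrially encoded genes took 3.12% and 5.998% of UMIs. Levels are given as CPM, the UMIs of a gene summed over the cells of a group in a library and scaled to a common total, and intervals are at the 95% level and cover counting error only. Border-associated-macrophage-like and granulocyte-like cells also had 13 microglia markers above 0 in each library, so detection alone did not set microglia-like cells apart. These markers summed to 5422.3 CPM in dexamethasone and 6206.3 CPM in control microglia-like cells. In border-associated-macrophage-like cells they summed to 4762.2 and 5178.6 CPM. Rodent genomes hold processed copies of several glycolysis genes, so counts may be shared with a copy, and levels are uncertain to that extent.

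Promoter windows are shown for 4 of the genes, taken from opposite sides across microglial states in the main clustering. Ldha and Slc2a1 were higher in the axon-tract-led cluster, and Hk2 and Slc2a5 in the homeostatic-led cluster. Aldoa, Tpi1, Pgk1, Eno1 and Pkm were also higher in the axon-tract-led cluster, and no windows of theirs are printed. The windows are the 250 bases before the annotated start in RefSeq on GRCr8, and 9 of the 10 genes had a window there, 12 windows in all. The letters ACGTG and GCGTG, the core bound by hypoxia-inducible factors, were searched on both strands, and so was GAGGAA, a core of the myeloid factor PU.1. Capitals mark the hypoxia core in Ldha (chr1:106507842-106508091, plus strand) and Slc2a1 (chr5:138002272-138002521, plus strand), and the PU.1 core in Hk2 (chr4:116841276-116841525, minus strand). Slc2a5 (chr5:165865929-165866178, plus strand) had neither and is all in lower case. Each is printed from 5′ to 3′ on the strand of its gene.
Ldha: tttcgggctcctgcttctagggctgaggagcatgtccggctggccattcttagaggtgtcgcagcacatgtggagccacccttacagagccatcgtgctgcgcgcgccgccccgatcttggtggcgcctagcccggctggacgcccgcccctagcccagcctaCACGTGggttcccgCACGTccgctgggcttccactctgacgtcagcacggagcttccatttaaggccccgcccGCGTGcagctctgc
Slc2a1: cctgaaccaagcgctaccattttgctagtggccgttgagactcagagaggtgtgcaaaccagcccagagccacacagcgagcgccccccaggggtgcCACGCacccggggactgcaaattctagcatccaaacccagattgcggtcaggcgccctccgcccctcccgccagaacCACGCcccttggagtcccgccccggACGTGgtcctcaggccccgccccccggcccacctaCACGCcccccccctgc
Hk2: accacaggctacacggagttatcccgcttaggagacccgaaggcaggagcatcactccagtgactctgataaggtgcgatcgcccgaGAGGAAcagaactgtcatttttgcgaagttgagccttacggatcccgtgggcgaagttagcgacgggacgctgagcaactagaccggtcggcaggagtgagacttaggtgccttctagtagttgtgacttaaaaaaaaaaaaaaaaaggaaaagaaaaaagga
Slc2a5: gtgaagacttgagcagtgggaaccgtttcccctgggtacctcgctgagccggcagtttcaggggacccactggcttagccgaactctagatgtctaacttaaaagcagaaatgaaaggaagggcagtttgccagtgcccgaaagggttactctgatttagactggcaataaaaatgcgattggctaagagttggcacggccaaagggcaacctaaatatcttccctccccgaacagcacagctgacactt
The Ldha window held 4 hypoxia-core matches, 2 of which overlap on opposite strands, so that they mark 3 separate sites. The Slc2a1 window held 4 matches at 4 sites, the nearest starting 16 bases before the start. Across the 12 windows, 5 held a hypoxia core (Ldha, Slc2a1, both of Eno1 and 1 of 3 of Aldoa), against 36.8% of 33360 promoter windows of that length. The PU.1 core was in 2 of the 12 (Hk2 and 1 of Aldoa), against 23.3% of all windows. The windows of Tpi1 and Pkm, which were also higher in the axon-tract-led cluster, held neither core. The 4 printed windows thus do not stand for the genes of either side. These matches describe letters and show no binding.

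In microglia-like cells the summed level of the 8 enzymes was nearly the same in both libraries, while single genes lay on both sides. Tpi1 and Slc2a1 were higher in the dexamethasone library by at least 1.2-fold (0.26 on the log2 scale), the size used here for a call. None of the 10 was lower by that size, and the nearest was Eno1. Thus 2 of 10 were called higher, against 15.8% of the 12512 genes that had 20 UMIs or more in all, and 0 of 10 lower, against 15.3%. The genes' shares were near or below that background. In all, 5 of the 10 were higher and 5 lower. Their median log2 ratio was 0.04, against -0.00069 over all genes tested.

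The transporters lay on opposite sides. Slc2a1 (GLUT1), the widespread basal glucose transporter, had 564 UMIs or 17.2 CPM in dexamethasone microglia-like cells and 742 UMIs or 13.1 CPM in control cells. Its log2 ratio was 0.39 (interval 0.23 to 0.55). Slc2a5 (GLUT5), the fructose transporter, had 106.4 CPM in dexamethasone cells, against 117.2 CPM in control cells, with a log2 ratio of -0.14 (interval -0.20 to -0.08), under the size for a call.

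Hk2, the hexokinase that commits glucose to the cell, was slightly higher, with 360.1 CPM in dexamethasone cells and 327 CPM in control cells, a log2 ratio of 0.14 (interval 0.10 to 0.17). Gpi, which turns glucose-6-phosphate into fructose-6-phosphate, had 127.7 and 134.4 CPM in the dexamethasone and control libraries, a log2 ratio of -0.07. Aldoa, which splits fructose-1,6-bisphosphate, had 502 CPM in dexamethasone cells, against 529 CPM in control cells, again -0.07. These 3 upper-pathway enzymes differed between the libraries by less than the size for a call, though none of their counting intervals held 0.

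Tpi1, which interconverts both triose phosphates, showed the widest difference of the 10. It had 627 UMIs or 19.1 CPM in dexamethasone cells and 434 UMIs or 7.65 CPM in control cells, although the control library held more cells. The log2 ratio was 1.32 (interval 1.14 to 1.499). These levels were far below those of Aldoa, at 502 and 529 CPM, and Pgk1, at 430.1 and 407 CPM, in the same order of libraries. Whether the counted UMIs give the full level of Tpi1, given processed copies of glycolysis genes, was not tested. Its ratio is uncertain to that extent. A Tpi1 UMI was carried, after each cell was thinned to 4200 UMIs, by 7.61% of 3062 dexamethasone cells, against 2.85% of 5694 control cells, and unthinned shares were 16.6% and 6.32%. Thinning left out 157 dexamethasone and 601 control microglia-like cells that were shallower.

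The lower pathway varied in small steps. Pgk1, the earlier ATP-yielding step, had 430.1 CPM in dexamethasone cells and 407 CPM in control cells, a log2 ratio of 0.08 (interval 0.05 to 0.11). Eno1, which makes phosphoenolpyruvate, had 321 CPM in dexamethasone cells, against 375 CPM in control cells, a log2 ratio of -0.22 (interval -0.26 to -0.19). Pkm, the pyruvate kinase of the final step, had 26.6 and 23.5 CPM in the dexamethasone and control libraries, a log2 ratio of 0.17. Neither Eno1 nor Pkm passed the size for a call.

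Ldha, which makes lactate from pyruvate, was at 404 CPM in both libraries, with a log2 ratio of -0.0019 (interval -0.03 to 0.03). The 8 enzymes together had 2190.1 CPM in dexamethasone cells and 2207.6 CPM in control cells, a log2 ratio of -0.011 (interval -0.025 to 0.0018). That sum took either sign under other ways of processing, between -0.03 and 0.03, so it shows no direction. The share of mitochondrial UMIs differed between the libraries beside these values, and its part in them was not tested; with mitochondrial and ribosomal protein UMIs left out of the scaling, the sum was -0.03. Of the 10 genes, 6 had a higher thinned share of cells with a UMI in the dexamethasone library, and 9 did unthinned.

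**Figure D1:**
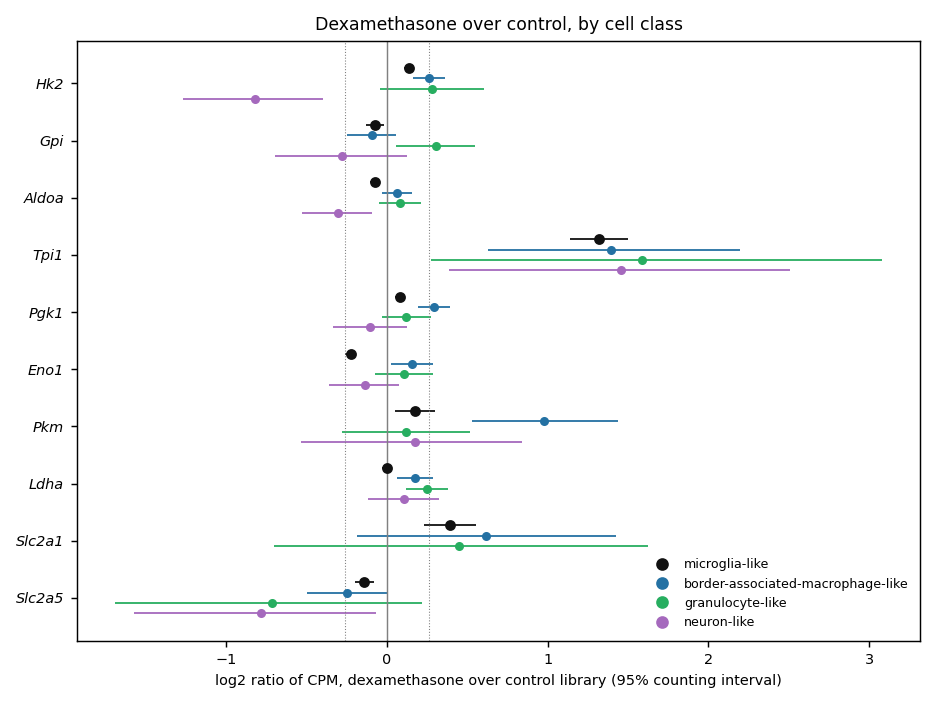
Log2 ratio of CPM, dexamethasone over control library, for each gene in 4 cell classes; points are ratios, bars 95% counting intervals, dotted lines the 1.2-fold size, and genes with under 20 UMIs in a class are left out. Tpi1 lies to the right in each class shown, at 1.32 in microglia-like cells, while most other points in microglia-like cells lie between the dotted lines.

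Levels of these genes varied between the 6 microglia-like clusters. The highest cluster was 1.2-fold (Gpi) to 3.09-fold (Slc2a1) above the lowest in the dexamethasone library, and 1.23-fold (Gpi) to 3.38-fold (Slc2a1) in the control library. Cluster 1 was led by Tmem119 and P2ry12, markers of homeostatic microglia. Cluster 2 had Spp1, Gpnmb and Lpl, markers of the axon-tract state of developing white matter, and is called axon-tract-led after them. Its leading genes also held Cd8a, at the top, and the chemokines Ccl7 and Ccl2. Clusters 3, 5 and 7 were led by cell-cycle genes: mitotic genes in cluster 3, histone genes in cluster 5 and genes of the entry into S phase, such as Cdc6 and Ccne2, in cluster 7. Mitotic genes were not particular to cluster 3. Summed mitosis markers had 3151.3 CPM in dexamethasone and 4113.5 CPM in control cells of cluster 3. In cluster 5 they had 4716.3 and 5213.4 CPM. Cluster 0 had Clec2l and replication genes such as Mcm6 among its leading genes. No studied gene was among the 2000 variable genes used for clustering, but genes that vary with them were, so levels by cluster are a description.

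Hk2 was highest in the homeostatic-led cluster 1, at 491 CPM in dexamethasone cells and 431 CPM in control cells, although in the dexamethasone library its interval overlapped that of cluster 0. Its lowest levels were 245 CPM in cluster 2 of the dexamethasone library and 207 CPM in cluster 5 of the control library. The intervals of clusters 2 and 5 overlapped in both libraries, so these share the low end. Slc2a5 was likewise highest in cluster 1, at 141.5 CPM in dexamethasone cells and 154.5 CPM in control cells. Its lowest level was in cluster 7, at 74.2 and 85.3 CPM in dexamethasone and control cells, where the interval overlapped that of cluster 2. The leading place of cluster 1 for Slc2a5 stood clear of its neighbour's interval in both libraries.

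Aldoa, Eno1 and Slc2a1 were highest in the axon-tract-led cluster 2 in both libraries. Aldoa reached 765 CPM in dexamethasone cells of cluster 2 and 849 CPM in its control cells. In the other 5 microglia-like clusters Aldoa lay between 360.2 and 439.6 CPM in dexamethasone cells and between 377 and 454 CPM in control cells, so cluster 2 stood apart for this gene. Slc2a1 had 28.9 CPM in cluster 2 of the dexamethasone library and 26.4 CPM in that of the control library. Its next levels were 16.2 CPM in cluster 1 of the dexamethasone library and 9.99 CPM in cluster 5 of the control library.

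Ldha and Pgk1 were lowest in cluster 1 and high in clusters 7, 2 and 5. Ldha had 234 CPM in cluster 1 of the dexamethasone library and 223 CPM in that of the control library, against 488 and 502 CPM in cluster 7. Pgk1 had 308 and 285 CPM in cluster 1 of the dexamethasone and control libraries and 540.5 and 495 CPM in cluster 7. Pkm ran from 14.7 CPM in cluster 1 to 33.1 CPM in cluster 7 of the dexamethasone library, and from 14.1 CPM in cluster 1 to 31.0 CPM in cluster 2 of the control library. For Gpi, which varied least, the intervals of all neighbours in the order of clusters overlapped in both libraries.

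**Figure D2:**
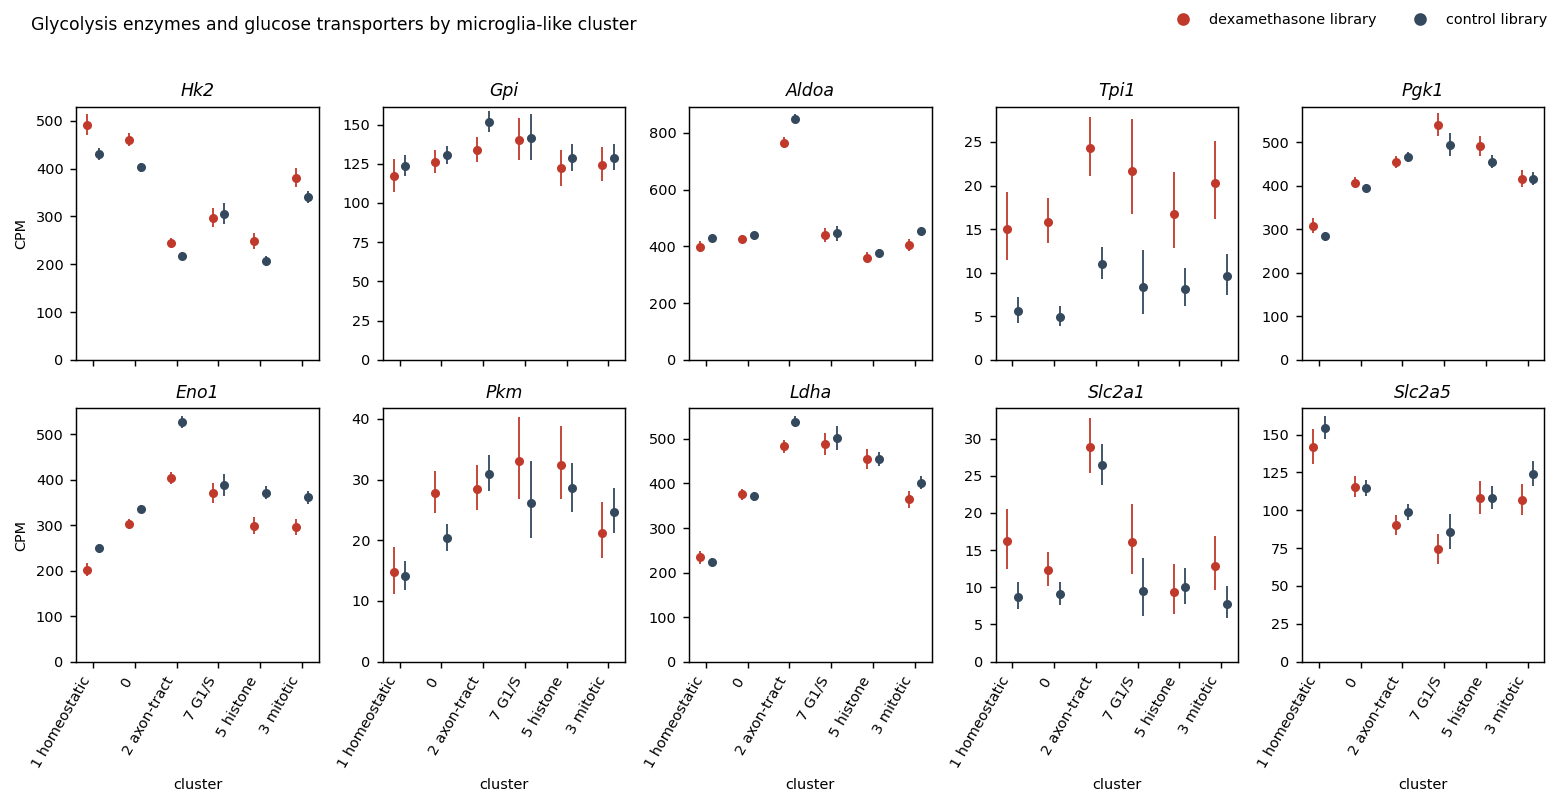
CPM of each gene in the 6 microglia-like clusters, dexamethasone library left and control library right; points are levels and bars 95% Poisson intervals, on linear axes that start at 0. Hk2 and Slc2a5 are highest in cluster 1, Aldoa and Slc2a1 stand out in cluster 2, and Tpi1 is higher in the dexamethasone library in all 6 clusters.

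Set directly against each other, the axon-tract-led cluster 2 was above the homeostatic-led cluster 1 by at least 1.2-fold in both libraries for 7 of 10 genes, against 17% of 9984 genes tested. It was below by that size in both libraries for 2 of 10, against 26.5%. Above were Aldoa, Tpi1, Pgk1, Eno1, Pkm, Ldha and Slc2a1, and below were the entry enzyme Hk2 and the fructose transporter Slc2a5. Ldha had log2 ratios of cluster 2 over cluster 1 of 1.06 for dexamethasone and 1.27 for control. Eno1 had 1.01 and 1.08, and Slc2a1 had 0.85 and 1.59, in the same order of libraries. On the other side Hk2 had -0.99 in each library and Slc2a5 -0.64 and -0.65, so the 2 libraries gave nearly the same size. Gpi, at 0.21 and 0.30, did not reach the fold in both.

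Cells of cluster 2 were deeper than those of cluster 1, with medians of 10799 against 6609.5 UMIs in the dexamethasone library and 10462.5 against 5749 UMIs in the control library. CPM divide by that depth, and its part in the ratios was not tested. At a coarser clustering (resolution 0.3) Pgk1 was no longer called, at 0.23 and 0.43. At a finer one (1.0) Gpi was called above, and Slc2a1 lost its call and turned direction in the dexamethasone library, with log2 ratios of -0.19 for dexamethasone and 0.52 for control. Its place in the axon-tract-led cluster thus depends on where that cluster is drawn. This contrast between states was chosen after the levels had been seen.

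**Figure D3:**
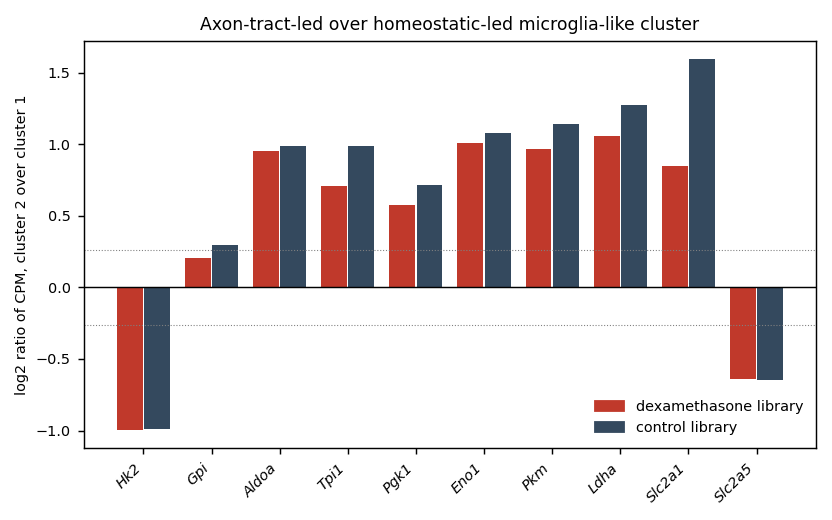
Log2 ratio of CPM of cluster 2 (axon-tract-led) over cluster 1 (homeostatic-led) for each gene, in the dexamethasone library (left bar) and the control library (right bar); dotted lines mark the 1.2-fold size. Hk2 and Slc2a5 lie below 0 and the other 8 genes above it in both libraries.

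Between the libraries, Tpi1 was higher in the dexamethasone library in all 6 microglia-like clusters, with log2 ratios from 1.04 in cluster 5 to 1.68 in cluster 0, where it had 151 UMIs (15.8 CPM) in dexamethasone cells and 79 UMIs (4.94 CPM) in control cells. Eno1 was lower in all 6 and past 1.2-fold in clusters 1, 2, 3 and 5. Its widest difference was in cluster 2, with 403 CPM in dexamethasone cells and 526.5 CPM in control cells, a log2 ratio of -0.39. Eno1 is thus the gene that came nearest to a lower call over the class as a whole.

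Slc2a1 was past the fold in clusters 0, 1, 3 and 7, with 16.2 CPM in dexamethasone cells and 8.76 CPM in control cells of cluster 1, a log2 ratio of 0.89. In cluster 2, where its level was highest, the log2 ratio was 0.13 and the interval held 0. In cluster 5 it was lower, with 9.35 CPM in dexamethasone and 9.99 CPM in control cells, a log2 ratio of -0.096 whose interval also held 0. Whether the ratio differs between these clusters was not tested. Hk2 was higher in 5 of the 6 clusters and reached the fold in cluster 5 alone, at 0.26; in cluster 7 it was -0.04.

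Of the 10 genes, 3 were called higher in cluster 0, against 17.8% of all genes tested there, and 3 in cluster 7, against 17.4%. The count was 2 for cluster 1 (background 21.4%), 2 for cluster 3 (17.3%), 2 for cluster 5 (18.4%) and 1 for cluster 2 (17.7%). Called lower was 1 gene, Eno1, for cluster 1 (background 16.9%), cluster 2 (16.1%), cluster 3 (21.2%) and cluster 5 (18.3%), and 0 for cluster 0 (15.7%) and cluster 7 (26.9%). These shares lie around the background. Pkm made up the count in clusters 0 and 7, at log2 ratios of 0.45 (interval 0.21 to 0.69) and 0.34 (interval -0.12 to 0.80). The interval in cluster 7 thus held 0.

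Among the 5 named cell classes, the granulocyte-like cells had the highest levels of Gpi, Aldoa, Pgk1, Eno1, Pkm and Ldha in both libraries, and the erythroid-like cells the lowest of each of the 8 enzymes and of Slc2a5. For Eno1 in the control library the lead was small, at 394.6 CPM, against 375 CPM in microglia-like cells, and the intervals overlapped. Granulocytes are known to rely strongly on glycolysis, and this cluster also carried 3 monocyte markers beside 3 granulocyte markers. Cells of the 3 unnamed clusters in the control library were higher still for Aldoa, at 856.9 CPM, and Eno1, at 533 CPM. The summed enzyme level of granulocyte-like cells was 3185 CPM for dexamethasone and 2837.5 CPM for control. In microglia-like cells the sums were 2190.1 and 2207.6 CPM, and in border-associated-macrophage-like cells 1746.6 and 1545 CPM. Erythroid-like cells had 199 and 187.7 CPM. Outside the named classes, cluster 12, with 2 choroid markers among its top genes, was above the granulocyte-like sums in both libraries. It had 4183.1 CPM in 6 dexamethasone cells and 3691.4 CPM in 40 control cells.

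Pkm was the gene that set granulocyte-like cells apart by at least 2-fold in both libraries, with 91.4 CPM in dexamethasone cells and 84.1 CPM in control cells, 3.44 and 3.58 times the microglia-like level. That is 1 of 10 genes called above, against 7.72% of 11448 genes tested. Called below were 2 of 10, Hk2 and Slc2a5, against 10.5%. Slc2a5 in granulocyte-like cells was at 0.127 and 0.189 of the microglia-like level in the dexamethasone and control libraries. Ldha reached 846 CPM in dexamethasone and 712 CPM in control granulocyte-like cells, 2.10 and 1.76 times the microglia-like level, and so missed the call in the control library.

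In border-associated macrophages, which line the meninges and vessels, Slc2a1 was below microglia-like cells by 2-fold in both libraries. It had 7.04 CPM in dexamethasone cells and 4.60 CPM in control cells, and it was 1 of 10 genes called below, against 4.57% of genes, with 0 of 10 above, against 2.08%. No gene was called below at resolution 1.0 or when clustered without the pathway genes (0 of 10 in each), so this call depends on the clustering. Slc2a5 stood close to that line, at 0.474 and 0.510 of the microglia-like level. Hk2 in this class was within counting error of microglia-like cells in the dexamethasone library, at 360.4 CPM, and lower in the control library, at 299.9 CPM, against 327 CPM. The class joins clusters 4 and 11, and cluster 11 held 13 dexamethasone and 147 control cells. Control cells had 348 CPM of Hk2 in cluster 4 and 150 CPM in cluster 11, so the lower level did not hold in cluster 4. For Slc2a5 they had 75.7 CPM in cluster 4 and 10.2 CPM in cluster 11.

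Erythroid-like cells, in which globin transcripts took most UMIs, were below microglia-like cells by 2-fold in both libraries for 10 of 10 genes, against 81.2% of genes tested, and above for 0 of 10, against 1.39%; with the stricter cell filter 9 were below. The calls of Slc2a1, Pkm and Tpi1 rest on 10 UMIs or fewer in each library. Haemoglobin was at 567519.5 CPM in dexamethasone and 627936.3 CPM in control erythroid-like cells, which lowers the CPM of other genes. Mature red cells depend on glycolysis and glucose uptake, and Slc2a1 had 10 UMIs in dexamethasone and 3 UMIs in control erythroid-like cells. Its interval over microglia-like cells in the dexamethasone library, -2.83 to -0.87 on the log2 scale, reached to under 2-fold. Tpi1 had 1 and 0 UMIs there, and its call set the library at 0 to the floor of 3 counts.

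In neuron-like cells 2 of 10 genes were below microglia-like cells by 2-fold in both libraries, Hk2 and Slc2a5, against 10.8% of 11808 genes, and 0 of 10 above, against 16.8%. Slc2a5 had 24.6 CPM in dexamethasone and 42.4 CPM in control neuron-like cells. Microglia markers were not absent from these cells: 14 markers summed to 915 CPM in dexamethasone and 2057.3 CPM in control neuron-like cells, against 5422.3 and 6206.3 CPM in microglia-like cells. Doublets could not be removed and free RNA was not subtracted, and their part in these levels was not tested.

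After thinning to 4200 UMIs, 7.35% of 68 dexamethasone and 18.2% of 203 control neuron-like cells carried a Slc2a5 UMI. Thinning left out 52 dexamethasone and 316 control neuron-like cells that were shallower, so these shares cover the deeper cells only. In erythroid-like cells, where globin transcripts took most UMIs, the shares were 2% and 1.54%, and in microglia-like cells 34.3% and 38.5%. Unthinned shares in microglia-like cells were 57.7% and 59.0%, and in neuron-like cells 10% and 12.9%, at median depths of 5515.5 and 2366 UMIs. Slc2a1 was carried by 6.99% of dexamethasone and 4.92% of control microglia-like cells after thinning, against 1.47% and 2.96% of neuron-like cells. The neuron-like shares rest on 1 dexamethasone and 6 control cells. For the enzymes, a low share or count does not show that a class lacks the gene.

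**Figure D4:**
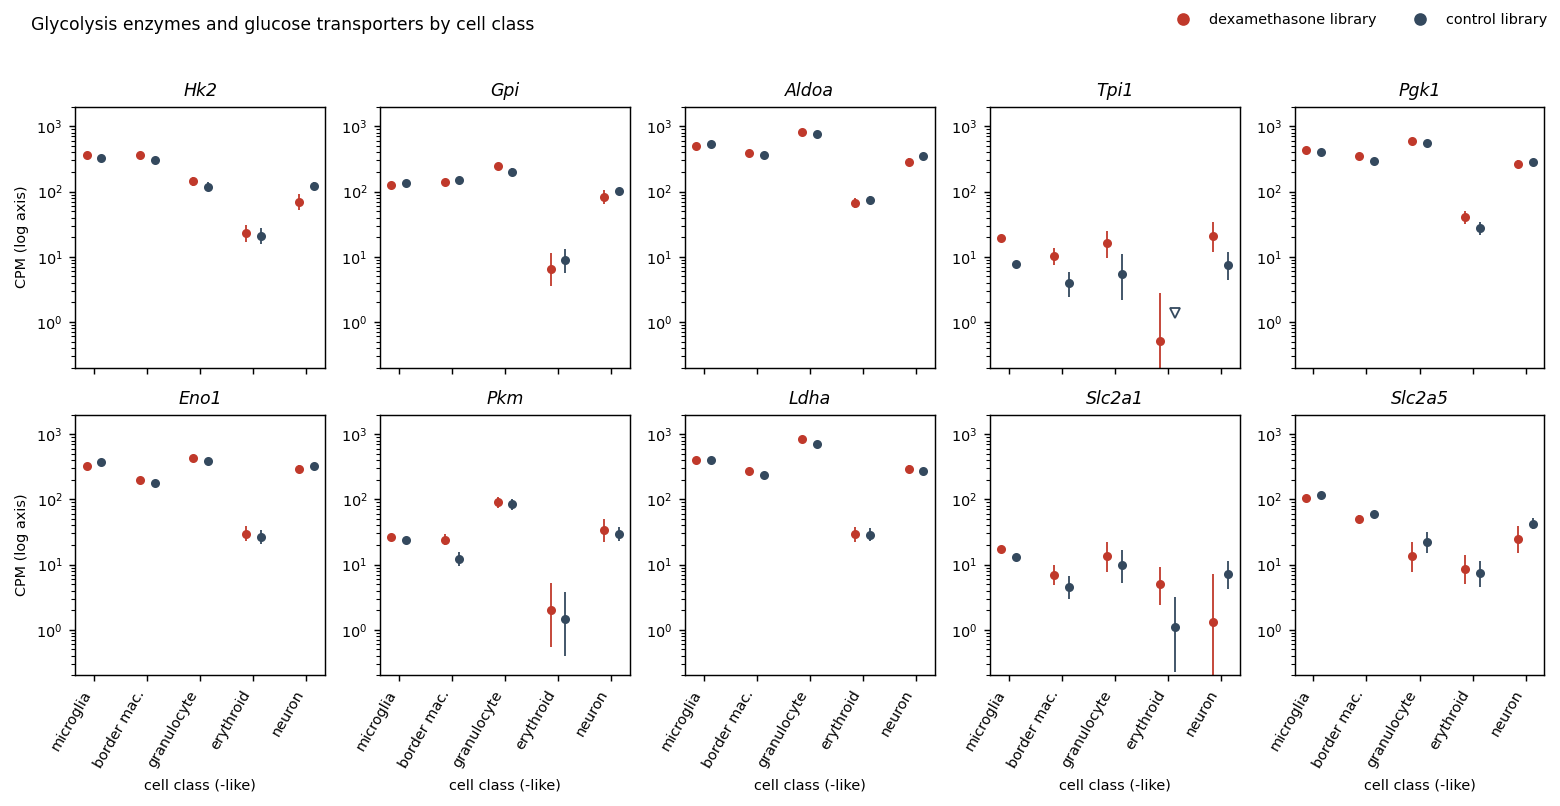
CPM of each gene in 5 cell classes, dexamethasone library left and control library right, on log axes; points are levels, bars 95% Poisson intervals, and an open triangle is the upper bound where the count was 0. Erythroid-like cells are lowest for the 8 enzymes, and granulocyte-like cells are highest for Pkm, at 91.4 and 84.1 CPM.

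Outside microglia-like cells, Tpi1 was again higher in the dexamethasone library in each named class with at least 20 UMIs. Border-associated-macrophage-like cells had 45 UMIs (10.2 CPM) for dexamethasone and 22 UMIs (3.89 CPM) for control, a log2 ratio of 1.39. Granulocyte-like cells had 19 and 7 UMIs, and neuron-like cells 16 and 18 UMIs at 20.7 and 7.56 CPM, with log2 ratios of 1.59 and 1.46. These intervals were wide but lay above 0 in each of these named classes. In cells of the unnamed clusters, with 16 and 7 UMIs, the log2 ratio was 0.67 and its interval held 0 (-0.69 to 2.20). Over all cells analysed, Tpi1 was at 17.2 CPM for dexamethasone and 7.02 CPM for control.

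In border-associated-macrophage-like cells 5 of 10 genes were called higher, against 18.9% of genes, and 0 lower, against 22%: Hk2, Tpi1, Pgk1, Pkm and Slc2a1. The interval of Slc2a1 held 0, in the class (-0.19 to 1.42) and in cluster 4 alone (-0.10 to 1.71). This class joins clusters 4 and 11, and cluster 11 held 13 dexamethasone cells and 147 control cells, so the mix differed. Within cluster 4 alone, Hk2 had a log2 ratio of 0.07 and was not called. There 4 genes were higher (19.4% of genes) and 1 lower (22.5%).

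Pkm in cluster 4 had 24.6 CPM in dexamethasone and 11.9 CPM in control cells, a log2 ratio of 1.04. Pgk1 had 361 CPM in dexamethasone and 274 CPM in control cells, a log2 ratio of 0.40. The lower gene was Slc2a5, with 51.9 CPM in dexamethasone and 75.7 CPM in control cells, a log2 ratio of -0.54; in the whole class it was -0.25 and not called. For Slc2a5 the call thus depended on leaving out cluster 11, where it had 0 and 14 UMIs.

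In granulocyte-like cells 4 of 10 genes were called higher, against 21.9% of genes, namely Hk2, Gpi, Tpi1 and Slc2a1, and 1 lower, Slc2a5, against 30.6%. Gpi had 247 CPM in dexamethasone and 200.4 CPM in control cells, a log2 ratio of 0.30 (interval 0.06 to 0.55). The intervals of Hk2, Slc2a1 and Slc2a5 held 0. Granulocyte markers summed to 62228.4 CPM in dexamethasone and 20632.3 CPM in control cells of this class. Whether the mix of cells or the level per cell differed was not tested, nor was its part in these values.

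In neuron-like cells 1 of 9 genes tested was called higher, Tpi1, against 29% of genes, and 4 lower, Hk2, Gpi, Aldoa and Slc2a5, against 28.6%. Hk2 had 69.9 CPM in dexamethasone and 123.4 CPM in control cells, a log2 ratio of -0.82 (interval -1.27 to -0.40). The summed microglia markers in these cells, given above, were also lower in the dexamethasone library, and haemoglobin was at 6290.4 CPM there, against 476.5 CPM in the control library; their part was not tested. In erythroid-like cells 1 of 7 genes was called higher, Pgk1 (28.1% of genes), and 1 lower, Gpi (35.5%), with 13 and 24 UMIs.

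Among the rest of the pathway, measured in microglia-like cells, list medians lay between -0.16 and 0.11, and Ldhb, Pfkl, Rpia, Pygl and Mif among the named genes were past 1.2-fold. Of 17 other glycolysis enzymes and isozymes matched, 10 were measured with at least 20 UMIs, 4 higher and 6 lower; 2 were past 1.2-fold higher, against 15.8% of all genes tested, and 3 past it lower, against 15.3%, and the median was -0.16. Over all genes 6233 were higher and 6279 lower. That median took the other sign in cells thinned to 1 depth, at 0.07, and as a mean of per-cell CPM, at 0.02. Pfkl, the liver-type phosphofructokinase, had 54.0 CPM in dexamethasone and 38.3 CPM in control cells, a log2 ratio of 0.50. Ldhb, the lactate dehydrogenase subunit that favours pyruvate, had 17.5 CPM in dexamethasone and 30.5 CPM in control cells, a log2 ratio of -0.80. So Ldhb was lower while Ldha was level; in neuron-like cells Ldhb was at 102.3 and 103.3 CPM.

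Pgam1, the mutase between Pgk1 and Eno1, had 184.6 CPM in dexamethasone and 158.9 CPM in control cells, a log2 ratio of 0.22, and Adpgk, an ADP-dependent glucokinase, 61.6 and 58.6 CPM. Gapdh and Hkdc1 were not matched by symbol and are not analysed here. Regulators and pyruvate entry had 11 of 15 genes higher, 2 of them past the fold (15.8% of all genes), and 0 past it lower (15.3%), with a median of 0.08. In that list Pdk1, which restrains pyruvate dehydrogenase, had a log2 ratio of 0.15, Pdha1, a subunit of that enzyme, 0.09, and the mitochondrial pyruvate carriers Mpc1 and Mpc2 0.03 and 0.08.

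Other sugar and lactate transport had 10 of 15 genes measured, 6 higher and 4 lower, with 0 past the fold higher (all genes, 15.8%), 1 lower (15.3%) and a median of 0.04. Bsg, the chaperone of lactate transporters, had 579.9 CPM in dexamethasone and 572.5 CPM in control cells. Slc2a8, an intracellular hexose transporter, had a log2 ratio of -0.11 and the monocarboxylate transporter Slc16a7 -0.03. Slc2a3, the neuronal glucose transporter, had 0 UMIs in each of the 5 named classes of both libraries, neuron-like cells included, so its 0 in microglia-like cells is no measure of them.

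The pentose phosphate pathway, which makes NADPH and ribose, had 5 of 6 genes higher, 1 past the fold (all genes, 15.8%) and 0 past it lower (15.3%), with a median of 0.08. Rpia, which makes ribose-5-phosphate, was past it with 37.3 CPM in dexamethasone and 28.7 CPM in control cells, a log2 ratio of 0.38. Tkt and Taldo1, which link the pathway back to glycolysis, had log2 ratios of 0.0093 and 0.06.

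Glycogen genes had 5 of 9 higher and 4 lower, 2 past the fold higher (all genes, 15.8%) and 1 lower (15.3%), with a median of 0.08. Pygl, the liver-type glycogen phosphorylase, had 43.8 CPM in dexamethasone microglia-like cells and 21.2 CPM in control cells, a log2 ratio of 1.05. It was also past the fold higher in border-associated-macrophage-like and granulocyte-like cells, at 0.53 and 0.56. Gbe1, the branching enzyme, had a log2 ratio of 0.21, Ugp2, which makes UDP-glucose, 0.08 and Pgm2, a phosphoglucomutase, -0.01.

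Of the hypoxia list 19 of 21 matched genes were measured, 15 higher and 4 lower, 4 past the fold higher (all genes, 15.8%) and 1 lower (15.3%), with a median of 0.11. Hif1a, a hypoxia-inducible factor subunit, had 80.5 CPM in dexamethasone and 68.1 CPM in control cells, a log2 ratio of 0.24. Mif, a cytokine and hypoxia target, had 424 CPM in dexamethasone and 341 CPM in control cells, a log2 ratio of 0.31. P4ha1, a collagen prolyl hydroxylase, had 0.04. Outside the naming rule, and picked after their values were seen, are the genes at both ends of the list. Egln3, an oxygen-sensing hydroxylase, had 161 UMIs (4.90 CPM) in dexamethasone and 30 UMIs (0.529 CPM) in control cells, a log2 ratio of 3.21. Ddit4, an inhibitor of mTORC1 signalling, had 317 UMIs (9.65 CPM) in dexamethasone and 1058 UMIs (18.7 CPM) in control cells, a log2 ratio of -0.95 (interval -1.14 to -0.77).

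**Figure D5:**
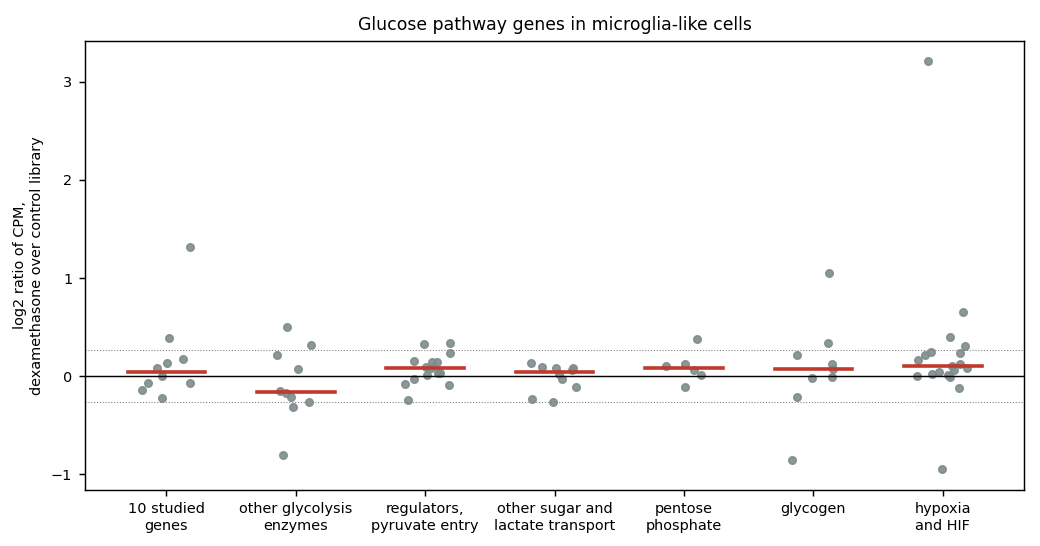
Log2 ratio of CPM, dexamethasone over control library, in microglia-like cells for the 10 studied genes and the genes of 6 pathway lists with at least 20 UMIs; each point is a gene, red lines are medians and dotted lines the 1.2-fold size. The medians lie between -0.16 and 0.11, and the points farthest from 0 are Egln3 at 3.21 and Tpi1 at 1.32.

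The genes also differed in how alike their patterns were over clusters. Over 22 points, 11 clusters with at least 50 cells per library taken in each library, Pearson's r of log2(CPM + 1) was 0.98 between Ldha and Pgk1 and 0.97 between Ldha and Eno1. Hk2 and Slc2a5 had 0.88, and Pkm and Slc2a5 0.29. Points of a library share depth and capture, and erythroid-like cells, low in each gene, are among the clusters, so these values are descriptions.

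Among 7151 genes compared, the 5 most like Slc2a5 were Wls (r = 0.985), Rcn3 (0.978), RT1-CE5 (0.976), Sparc (0.974) and Lgmn (0.968), and Sparc was also a microglia marker used here. Those most like Hk2 were P2ry6 (0.979), Il10rb (0.978), AABR07011996.1 (0.977), Bmp2k (0.977) and Cyth4 (0.976). Ldha was most like Pgk1, Tkt (0.977), Eno1, Acot9 (0.966) and Prdx6 (0.966), so 2 of its 5 nearest were among the genes studied.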

How the data were processed

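Single-cell RNA of sorted fetal rat hippocampal microglia was measured in 2 libraries. Per the submitters' processing notes, reads were processed with Cell Ranger 7.0.0 on Rnor_6.0, and the deposited values are raw UMI counts per gene and barcode, for 32623 genes. The genes and lists were chosen with earlier results of these data known. Kept cells had 200 genes or more and no more than 20% mitochondrial UMIs. Scrublet marked 3 of 4199 dexamethasone cells, which were removed, and 0 of 8044 control cells; a rate this low means the caller did not work, so doublets remain. Cells were clustered in scanpy 1.11.5 and leidenalg 0.10.2 (2000 variable genes, 30 components, 15 neighbours, resolution 0.5, no integration). A cluster took a class when at least 3 of its markers were among its 25 top genes by fold, and microglia-like clusters had 10 or more microglia markers at 0.6 of the median level or above; 3 clusters stayed unnamed. That rule was set after the data were seen. UMIs were summed per class and library and scaled to CPM. Intervals are exact Poisson for CPM, Clopper-Pearson for shares and conditional binomial for ratios. No test was made. Calls used 1.2-fold between libraries and states and 2-fold between classes, with at least 20 UMIs over both libraries. Between classes a gene could meet that minimum through microglia-like cells alone. All 10 studied genes were named, and from each list 2 genes by highest mean CPM and 2 by size of ratio, with at least 20 CPM; the values of 1 list gene are not reported here. Ratios were also recomputed under other filters, clusterings, scalings, depths and weights. The scripts were tested on simulated data.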

Additional observations from a re-analysis of the deposited data

Results flagged for a closer look

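Hk2 and Gpi differed in direction between classes, each by at least 1.2-fold; with 1 library per group none of these differences was tested. For Hk2, the log2 ratio, dexamethasone over control, stood at 0.27 in border-associated-macrophage-like cells and 0.28 in granulocyte-like cells, against -0.82 in neuron-like cells. The granulocyte-like interval held 0, and within cluster 4 of the macrophage class alone it was 0.07. For Gpi it was 0.30 in granulocyte-like cells, against -0.42 for the erythroid-like and -0.28 for the neuron-like cells, and the last 2 intervals held 0.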

How the results depend on the processing

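No paired analysis was possible because each group has 1 library. Of 132 alternative ratios for the 10 genes and the enzyme sum, 125 kept the main sign, and 109 of 120 for the single genes stayed within the counting interval of the main value. Tpi1 ranged from 1.26 to 1.43, Slc2a1 from 0.37 to 0.52, Eno1 from -0.25 to -0.15 and Slc2a5 from -0.17 to -0.11, and in microglia-like cells 2 genes were called higher and 0 lower in each setting, except 3 higher at resolution 1.0, where Pkm reached 0.29. The enzyme sum was 0.022 at resolution 1.0, 0.027 in thinned cells, 0.034 as a mean of per-cell CPM, -0.028 scaled without mitochondrial and ribosomal protein UMIs, and -0.032 with equal weight for each cluster; the cause was not tested. Ldha ran from -0.05 to 0.08 and has no direction. Genes called below microglia-like cells in border-associated-macrophage-like cells numbered 2 with the stricter cell filter, and 0 at resolution 1.0 and when clustered without the pathway genes, against 1; genes called above in granulocyte-like cells numbered 3 at resolution 1.0, against 1. The median of the other glycolysis enzymes was -0.087 at resolution 1.0, -0.21 without cycling clusters, 0.073 in thinned cells and 0.025 as a per-cell mean, against -0.16. The median of sugar and lactate transport was 0.0014 in thinned cells, that of the pentose phosphate pathway 0.046 in thinned cells and 0.061 as a per-cell mean, and that of the hypoxia list 0.083 when clustered without the pathway genes, 0.18 without cycling clusters and 0.18 in thinned cells. Depth limits Slc2a1, Tpi1 and Pkm most outside microglia-like cells, where no other named class had over 110 UMIs of any of them in a library.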
